A study of Mus musculus with 2 samples.

Results

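Integrins are the surface receptors that tie cells to the matrix around them, and laminins are trimeric proteins of the basement membrane to which several of them bind. All rows of the deposited matrices whose symbol names an integrin alpha chain, an integrin beta chain or a laminin chain were taken, which gave 37 of the 26100 genes that both matrices list: 18 integrin alpha chains, 8 integrin beta chains and 11 laminin chains. The study converts mouse embryonic fibroblasts (MEFs) into induced myogenic progenitor cells (iMPCs), a culture with stem-like, committed and differentiated muscle cells. It holds 2 single-cell libraries, 1 for each culture, both from cells of the genotype Tg:Pax7-nGFP/C57BL6;DBA2, a line whose name gives a Pax7-driven nuclear green fluorescent protein. The iMPC culture came from MEFs given the muscle transcription factor MyoD together with an additive mix that the labels call F/R/C, and was kept in medium with that mix. The design text speaks of a stable iMPC clone, so these cells may descend from a single conversion. The MEF culture was kept in MEF medium and serves as the starting cells. With 1 library a group there is no replicate, so no test of any difference was possible, and every interval below is a 95% interval that covers counting error only.

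An integrin is a heterodimer of an alpha and a beta chain. The alpha chain sets much of the ligand choice: the Itga3, Itga6 and Itga7 products bind laminin, the Itga5, Itga8, Itgav and Itga2b products bind proteins with the Arg-Gly-Asp (RGD) motif such as fibronectin and vitronectin, the Itga1, Itga2, Itga10 and Itga11 products bind collagen, and the Itga4 product binds Vcam1 and fibronectin. In skeletal muscle the Itga7 product pairs with that of Itgb1 and holds the fibre to its basement membrane. The main laminin of that membrane is a trimer of the Lama2, Lamb1 or Lamb2, and Lamc1 products, and loss of Lama2 causes a congenital muscular dystrophy.

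The upstream sequences of 4 members are shown as examples of genes at opposite ends of the series from fibroblast to muscle cell. Other members with an entry, such as Itga8 and Itgav, were also high in MEFs and low in muscle cells and are not shown. Itga4 and Itgb6 were high in Myog+ and Ckm+ cells, while Itga1 and Itgb5 were high in MEFs and low in the same muscle cells. Each sequence is the reference strand of the gene read 5′ to 3′ up to the last base before the annotated gene, from the RefSeq promoter table of build GRCm38.p6. Capitals mark the E-box CANNTG, the general motif of muscle basic helix-loop-helix factors, whose central letters are free. The motif reads the same class of site on both strands.
Itga4 (chr2:79255176-79255425, plus strand): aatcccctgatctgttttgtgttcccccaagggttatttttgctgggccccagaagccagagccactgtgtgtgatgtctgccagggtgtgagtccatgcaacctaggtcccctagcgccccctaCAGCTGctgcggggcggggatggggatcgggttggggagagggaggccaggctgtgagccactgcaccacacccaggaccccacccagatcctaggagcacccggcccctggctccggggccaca
Itgb6 (chr2:60722644-60722853, minus strand): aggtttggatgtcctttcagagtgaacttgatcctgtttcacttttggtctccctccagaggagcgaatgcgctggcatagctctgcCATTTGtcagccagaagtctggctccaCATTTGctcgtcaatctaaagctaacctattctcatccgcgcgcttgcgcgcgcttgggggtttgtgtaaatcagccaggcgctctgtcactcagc
Itga1 (chr13:115101965-115102214, minus strand): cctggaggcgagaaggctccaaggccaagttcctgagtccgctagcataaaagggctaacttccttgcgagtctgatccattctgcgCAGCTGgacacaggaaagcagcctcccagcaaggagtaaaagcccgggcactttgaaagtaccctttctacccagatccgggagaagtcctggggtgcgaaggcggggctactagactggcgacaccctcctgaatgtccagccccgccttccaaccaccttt
Itgb5 (chr16:33829415-33829664, plus strand): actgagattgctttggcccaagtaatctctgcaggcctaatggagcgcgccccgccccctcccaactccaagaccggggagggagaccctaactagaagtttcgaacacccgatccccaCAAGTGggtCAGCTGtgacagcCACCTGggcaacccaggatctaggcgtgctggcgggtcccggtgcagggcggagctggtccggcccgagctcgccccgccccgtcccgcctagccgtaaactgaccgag
The table held 12 entries for 11 of the 16 members described singly below. In the 250 bases before the start, 10 of the 12 entries had at least 1 CANNTG, against 66.2% of all 32851 promoters of that length. The CAGCTG form, a subset of CANNTG, was present in 3 of the 12 entries, at 125 bases before the start in Itga4, 163 in Itga1 and 122 in Itgb5, against 13.0% of all promoters. The CAGCTG form was thus present in Itga4, a gene high in muscle cells, and also in Itga1 and Itgb5, which were low there. It was absent from Itgb6, high in muscle cells, and from Itga8 and Itgav, low there. All 3 entries with CAGCTG are among the 4 sequences shown. A match describes the letters of this window and is not a binding site.

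Levels are given as CPM, the unique molecular identifiers (UMIs) of a gene per 1000000 UMIs of a population. A UMI counts the 3′ end of 1 molecule, so the values are not divided by gene length. The MEF population was 6043 cells with 118069653 UMIs, a median of 18976 per cell. The 9349 iMPC cells had 232728796 UMIs, a median of 20846. The iMPC cells were cut into 4 classes by UMI counts of 4 marker genes, which are ranges of counts rather than cell types. The Pax7 class, with at least 1 UMI of this muscle stem cell factor and 0 of Myog, held 2180 cells. The Myog class, with at least 5 UMIs of this differentiation factor and at most 1 of Ckm, held 1724 cells. The Ckm class, with at least 5 UMIs of muscle creatine kinase, held 1037 cells, and the Dcn class, with at least 5 UMIs of the fibroblast proteoglycan decorin, held 553. Another 4001 iMPC cells met no gate. The Ckm class was the deepest, with a median of 42148 UMIs against 18064 to 23857.5 in the other 3 classes. The Dcn class shared 110 cells with the Pax7 class and 18 each with the Myog and Ckm classes, and 16 cell barcodes occurred in both libraries.

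The classes were checked against marker lists, which hold the gate genes themselves. The 6 satellite cell markers summed to 509 CPM in the Pax7 class, 306 in the Myog class, 195 in the Ckm class, 120 in the Dcn class and 11.04 in MEFs. Pax7 itself gave 116 in the Pax7 class, where Chrdl2 was at 0.0227 CPM. Cdh15 stood at 172, 169 and 160 CPM in the Pax7, Myog and Ckm classes. The 4 committed myoblast markers summed to 28.9 CPM in the Pax7 class, 2059 in the Myog class and 2269 in the Ckm class. They were thus no lower in the Ckm class than in the Myog class. The 8 myocyte markers summed to 48349 CPM in the Ckm class, of which Ckm gave 409, and to 13865 in the Myog class. The 6 fibroblast markers summed to 2858 CPM in the Dcn class, 5480 in MEFs and 550 in the Pax7 class. Dcn itself gave 1162 CPM of the sum in the Dcn class, and all 6 were at 10 CPM or more in the Dcn class and in MEFs. The Dcn class also held 4350 CPM of myocyte markers and 105 CPM of the 3 pericyte markers Rgs5, Kcnj8 and Abcc9, against 50.9 in the Pax7 class and 0.737 in MEFs. MEFs held 9883 CPM of 4 smooth muscle markers, led by Acta2 and Tagln. The 9 immune markers summed to 2.42 to 6.02 CPM in the 5 populations, with Tyrobp and Adgre1 at 0 in each. What these other markers contribute to the levels of integrins and laminins was not tested.

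Of the 37 members, 16 reached 20 CPM in at least 1 of the 5 populations. The other 21 stayed at or below 16.1 CPM in each, and between 2 and 4 of the 37 were at 0 UMIs in any 1 population. Among the 16, the highest level was in the Dcn class for 7 genes, in MEFs for 5, in the Ckm class for 3 and in the Pax7 class for 1, Lama2. In no case was it in the Myog class. The same count was not made over all genes, so it does not set these members apart from other genes.

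**Figure D1:**
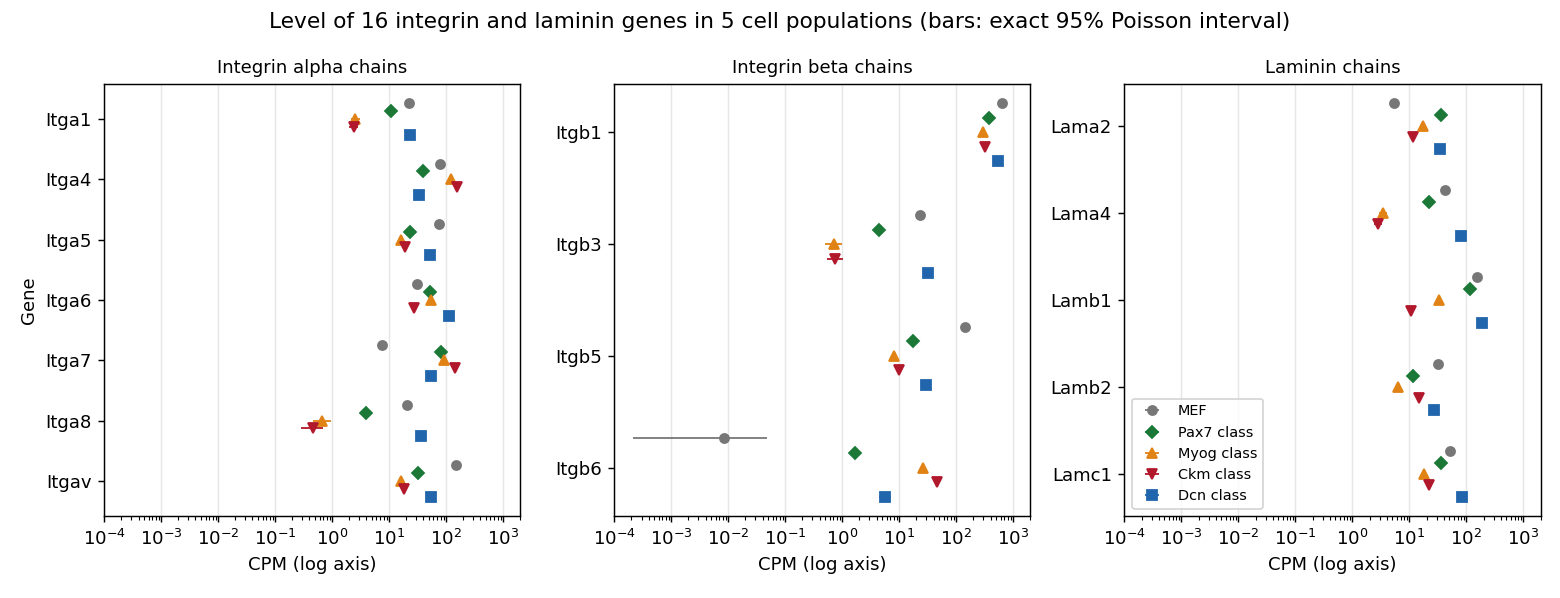
CPM (log axis) of the 16 members at 20 CPM or more in a population, with exact 95% Poisson intervals that are mostly narrower than the symbols. Itga7, Itga4 and Itgb6 are highest in the Ckm class (inverted triangles), while Itga8, Itgb3, Itga1 and Lama4 are low in the Myog and Ckm classes and high in MEFs and the Dcn class.

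Among the laminin-binding alpha chains, Itga7 (ENSMUSG00000025348, chr10:128933818-128958282, GRCm38) was the muscle form. It stood at 7.49 CPM in MEFs, 80.1 in the Pax7 class, 90.9 in the Myog class, 143 in the Ckm class and 53.2 in the Dcn class. All 4 iMPC classes lay above MEFs, and no neighbouring intervals overlapped. The Pax7 class was 10.7-fold above MEFs (9.93 to 11.5), while the Ckm class was less than 2-fold above the Myog class (log2 ratio 0.65, 0.59 to 0.71).

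Itga6 (chr2:71745616-71858416), whose product pairs with that of Itgb1 or Itgb4 and is a common marker of stem and progenitor cells, followed another order. Its level was 31.0 CPM in MEFs, 51.8 in the Pax7 class, 54.4 in the Myog class, 27.0 in the Ckm class and 114 in the Dcn class. The Dcn class was thus the high population, the Ckm class the low one, and the Pax7 and Myog classes overlapped. It was 3.67-fold higher in the Dcn class than in MEFs (3.45 to 3.91) and 2.20-fold higher than in the Pax7 class (2.05 to 2.35). The Ckm class was 2.01-fold below the Myog class (1.88 to 2.15), a ratio at the 2-fold line. That call was lost with at most 10% mitochondrial UMIs, with every cell given the same weight and with scaling by the median of gene ratios (log2 ratios -0.96, -0.89 and -0.78), and the ratio was -1.68 under stricter gates. Itga3 stayed between 0.260 and 1.18 CPM.

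Itga4 (ENSMUSG00000027009, chr2:79255426-79333123), whose product binds Vcam1 on neighbouring cells, was high both in MEFs and in differentiating muscle cells. It stood at 79.5 CPM in MEFs, 38.6 in the Pax7 class, 121 in the Myog class, 156 in the Ckm class and 33.3 in the Dcn class. The Pax7 and Dcn classes were the low ones, and no intervals of neighbours overlapped. The Myog class was 3.13-fold above the Pax7 class (2.96 to 3.31). Pax7 cells were 2.06-fold below MEFs (1.96 to 2.17), and that call was lost at 15000 UMIs or more, under stricter gates and under 2 other scalings, with log2 ratios of -0.87 to -0.95. Itga9, the related chain, stood at 3.46 to 9.28 CPM. Vcam1, the cell-surface ligand of the Itga4 product, had its order reversed within the muscle classes, with 191 CPM in MEFs, 42.6 in the Pax7 class, 12.8 in the Myog class and 3.80 in the Ckm class.

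Of the 4 chains for RGD ligands, Itgav and Itga5 were highest in MEFs, Itga8 in the Dcn class and Itga2b in the Ckm class. Itgav (chr2:83724397-83806916), the shared partner of several beta chains, stood at 151 CPM in MEFs, 32.5 in the Pax7 class, 16.1 in the Myog class, 18.0 in the Ckm class and 53.4 in the Dcn class. MEFs were the highest, and the Myog and Ckm classes overlapped. Itga5 (chr15:103344286-103366763), the fibronectin receptor chain, stood at 76.4, 23.1, 16.1, 19.1 and 51.9 CPM in the same order of populations. Again MEFs were highest and the Dcn class second. Against MEFs, the Pax7 class was 4.64-fold lower for Itgav (4.39 to 4.90) and 3.31-fold lower for Itga5 (3.10 to 3.53).

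Itga8 (chr2:12106632-12301922), a chain for nephronectin and fibronectin that is known from smooth muscle and mesenchyme, had the largest ratio of the Dcn class over the Pax7 class among the 16 members compared there. It stood at 20.4 CPM in MEFs, 3.95 in the Pax7 class, 0.671 in the Myog class, 0.452 in the Ckm class and 36.6 in the Dcn class. The Dcn class was highest, MEFs next, and the Myog and Ckm classes overlapped near the bottom. The Dcn class was 9.27-fold above the Pax7 class (7.76 to 11.1), a log2 ratio of 3.21 that was 4.17 in cells of 1 class only. Against MEFs, the Pax7 class had a log2 ratio of -2.37, or -3.15 in cells of 1 class only. Itga2b, the platelet chain, was under 20 CPM throughout, with 2.84 CPM in the Pax7 class, 4.63 in the Myog class and 16.1 in the Ckm class. The platelet markers Pf4, Gp9 and Ppbp were each at 0.185 CPM or less in the Ckm class.

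Of the collagen-binding chains, Itga1 (chr13:114953096-115101964) reached 20 CPM. Its level was 22.7 CPM in MEFs, 10.7 in the Pax7 class, 2.55 in the Myog class, 2.38 in the Ckm class and 23.4 in the Dcn class. MEFs and the Dcn class overlapped at the top, and the Myog and Ckm classes overlapped at the bottom. The Myog class was 4.20-fold below the Pax7 class (3.42 to 5.18), a log2 ratio of -2.07 that was -2.73 with every cell given the same weight. Among cells of 15000 UMIs or more the log2 ratio was -1.88, but the Pax7 class was then under the 10 CPM needed for a call. The Pax7 class was 2.12-fold below MEFs (1.92 to 2.34), a call lost under 3 other scalings (log2 ratios -0.99 to -0.91). Itga11, a chain of fibroblasts, had the same high and low populations at lower levels, with 9.84 CPM in MEFs, 0.682 in the Pax7 class, 0.108 in the Myog class, 0.144 in the Ckm class and 5.67 in the Dcn class. The 5 leukocyte chains Itgad, Itgae, Itgal, Itgam and Itgax were at or below 0.781 CPM in every population.

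Itgb1 (ENSMUSG00000025809, chr8:128685654-128733200), the common partner of most of these alpha chains, was detected in all 5 populations: 641 CPM in MEFs, 379 in the Pax7 class, 295 in the Myog class, 321 in the Ckm class and 543 in the Dcn class. Its highest level was 2.17 times its lowest, the smallest span of the 16 members. Itgb1 UMIs made up 78.9% of all integrin beta chain UMIs in MEFs (exact Clopper-Pearson interval 78.7 to 79.2) and 91.7% in the Pax7 class (91.2 to 92.0).

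The partners of Itgav among the beta chains differed between populations. Itgb5 (chr16:33829665-33949338), which forms a vitronectin receptor, stood at 145 CPM in MEFs, 17.4 in the Pax7 class, 8.12 in the Myog class, 9.80 in the Ckm class and 29.9 in the Dcn class. MEFs stood far above the rest, 8.33-fold above the Pax7 class (7.74 to 8.96). Itgb3 (chr11:104608000-104670476), another partner for vitronectin, stood at 23.3, 4.43, 0.714, 0.760 and 32.1 CPM in the same order, so that the Dcn class was highest and the Myog and Ckm classes overlapped. Its level in the Dcn class was 7.25-fold above the Pax7 class (6.09 to 8.65), a log2 ratio of 2.86 that was 3.72 in cells of 1 class only. The Pax7 class against MEFs gave -2.40, or -3.09 in cells of 1 class only.

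Itgb6 (ENSMUSG00000026971, chr2:60598292-60722643) is a beta chain best known from epithelia, where its dimer with Itgav activates transforming growth factor beta. It had 1 UMI in MEFs (0.00847 CPM) and stood at 1.66 CPM in the Pax7 class, 26.0 in the Myog class, 46.04 in the Ckm class and 5.59 in the Dcn class. The muscle classes were the high ones, and no intervals of neighbours overlapped. The Myog class was 15.7-fold above the Pax7 class (12.4 to 20.2). Over all iMPC cells the ratio to MEFs was 2208, with an interval of 396 to 87227 because it rests on 1 MEF UMI. The log2 ratio was 11.1, and 10.1 with every cell given the same weight. In the Dcn class Itgb6 was above the Pax7 class by 1.75 on the log2 scale, and by 0.04 without the cells that a doublet caller marked. The 6 epithelial markers summed to 0.136 to 0.678 CPM in the iMPC classes and to 14.6 in MEFs, nearly all of it Krt18. Of these, Krt5 and Krt14 were at 0 in all 5 populations, and Cdh1 reached at most 0.329 CPM, in the Ckm class. Itgb6 made up 12.1% of beta chain UMIs in the Ckm class (11.6 to 12.6) and 0.401% in the Pax7 class (0.314 to 0.504). Itgb8 stood at 7.93 CPM in the Pax7 class, 8.21 in the Dcn class and 0.559 in MEFs, and Itgb2, Itgb4 and Itgb7 stayed at or below 2.98 CPM.

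Among the laminin alpha chains, MEFs had mostly Lama4 and the muscle classes mostly Lama2. Lama2 (ENSMUSG00000019899, chr10:26980036-27619758), the muscle chain, stood at 5.37 CPM in MEFs, 36.1 in the Pax7 class, 17.4 in the Myog class, 11.7 in the Ckm class and 34.0 in the Dcn class. The Pax7 and Dcn classes overlapped at the top, and MEFs were lowest. Lama2 was 6.73-fold higher in the Pax7 class than in MEFs (6.14 to 7.39) and 2.07-fold lower in the Myog class than in the Pax7 class (1.90 to 2.26).

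Lama4 (chr10:38965515-39110188), a chain of vessel and mesenchymal basement membranes, stood at 42.7 CPM in MEFs, 22.1 in the Pax7 class, 3.46 in the Myog class, 2.82 in the Ckm class and 81.2 in the Dcn class. The Dcn class was highest, and the Myog and Ckm classes overlapped at the bottom. It was 6.38-fold lower in the Myog class than in the Pax7 class (5.39 to 7.59). The difference between the Pax7 class and MEFs lay just inside 2-fold (log2 ratio -0.95, -1.05 to -0.85) and passed it in cells of 15000 UMIs or more, in cells of 1 class only and under stricter gates (-1.33 to -1.09). Lama5, the broadly expressed chain, stood under 20 CPM, with 1.43 CPM in MEFs, 12.5 in the Pax7 class, 13.0 in the Myog class, 5.71 in the Ckm class and 5.26 in the Dcn class. It was 8.74-fold higher in the Pax7 class than in MEFs (7.35 to 10.5). Lama1 was at 0.153 CPM or less, and Lama3 had UMIs in MEFs only among the 5 populations, at 0.0423 CPM.

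As a share of laminin alpha chain UMIs, Lama4 made up 85.9% in MEFs (85.0 to 86.8), 31.2% in the Pax7 class (29.6 to 32.9) and 67.4% in the Dcn class (64.9 to 69.8). Lama2 made up 10.8% in MEFs, 51.0% in the Pax7 class and 57.8% in the Ckm class (54.6 to 60.9). Lama5 made up 38.3% in the Myog class (35.9 to 40.8) and 2.88% in MEFs. The family as a whole summed to 49.7 CPM in MEFs, 70.8 in the Pax7 class, 33.9 in the Myog class, 20.3 in the Ckm class and 121 in the Dcn class.

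Of the beta and gamma chains, Lamb1, Lamb2 and Lamc1 were highest in the Dcn class or in MEFs. Lamb1 (ENSMUSG00000002900, chr12:31265234-31329644) stood at 153 CPM in MEFs, 115 in the Pax7 class, 33.2 in the Myog class, 10.6 in the Ckm class and 186 in the Dcn class, with no overlap of neighbours. It was 3.45-fold lower in the Myog class than in the Pax7 class (3.26 to 3.65), and a further 3.14-fold lower in the Ckm class (2.84 to 3.48). Lamb2 (chr9:108479736-108490530), the chain found at the neuromuscular junction, stood at 31.5, 11.4, 6.41, 15.0 and 26.9 CPM in the same order. Its lowest level was in the Myog class, and the Ckm class was 2.34-fold above it (2.04 to 2.69). Lamb2 therefore made up 51.0% of laminin beta chain UMIs in the Ckm class (48.4 to 53.6) and 8.98% in the Pax7 class (8.25 to 9.76).

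Lamc1 (chr1:153218922-153332786), the gamma chain of most laminins, stood at 50.8 CPM in MEFs, 36.1 in the Pax7 class, 17.7 in the Myog class, 21.8 in the Ckm class and 84.1 in the Dcn class. The Dcn class was highest and the Myog class lowest. Lamc1 was 2.33-fold higher in the Dcn class than in the Pax7 class (2.15 to 2.52), and 2.04-fold lower in the Myog class than in the Pax7 class (1.87 to 2.22). Lamb3, a beta chain of epithelia, was highest in the Ckm class, at 3.84 CPM. It stood at 1.02 in the Pax7 class, 0.986 in the Dcn class and 0.0339 in MEFs, too low for a call. Lamc3 was at 0.203 CPM or less.

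**Figure D2:**
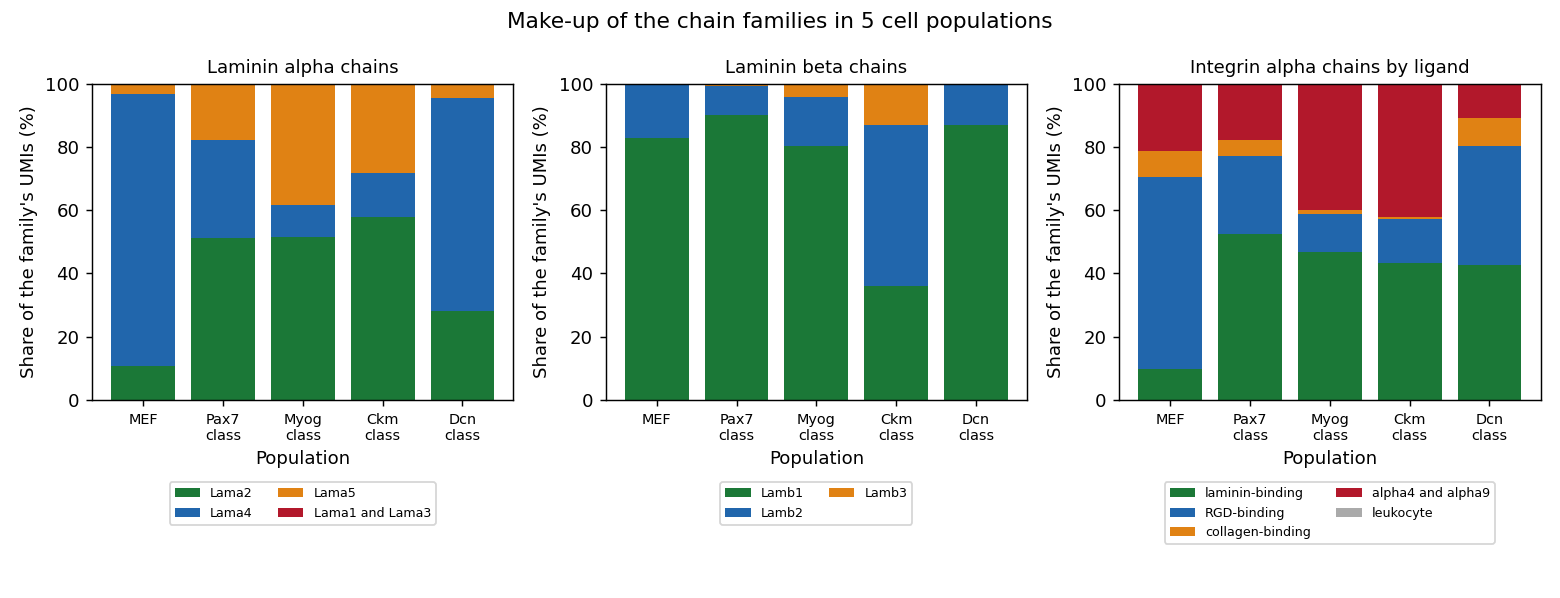
Percent of UMIs of the laminin alpha, laminin beta and integrin alpha chain families (stacked bars, 1 bar per population). Lama4 leads in MEFs and the Dcn class, Lamb2 takes 51.0% of beta chain UMIs in the Ckm class, and the laminin-binding integrin alpha chains take 9.64% in MEFs against 42.6% to 52.4% in the iMPC classes.

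Grouped by ligand, the RGD-binding alpha chains held the largest share in MEFs and the laminin-binding ones in each of the 4 iMPC classes. The 3 laminin-binding chains made up 9.64% of alpha chain UMIs in MEFs (9.38 to 9.90), 52.4% in the Pax7 class (51.4 to 53.3), 46.8% in the Myog class, 43.4% in the Ckm class and 42.6% in the Dcn class. The 4 RGD-binding chains made up 60.8% in MEFs (60.4 to 61.2), 24.7% in the Pax7 class, 12.1% in the Myog class and 37.8% in the Dcn class. Itga4 and Itga9 together made up 17.6% in the Pax7 class and 39.9% in the Myog class (39.1 to 40.7). In the Ckm class their 41.7% (41.0 to 42.4) was close to the 43.4% of the laminin-binding chains. These shares depend on how well the 3′ end of each gene is captured, so their comparison between populations is safer than that between genes.

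In all, 6 comparisons were made over all genes, and a gene was counted as higher or lower when it differed at least 2-fold and had at least 10 CPM on the higher side. These counts compare libraries or cells of 1 library, not replicated conditions. Over all iMPC cells against MEFs, 17 of the 37 members had enough UMIs, of which 4 were higher and 9 lower. The higher ones were Itga7, Itgb6, Lama2 and Lama5. The lower ones were Itga1, Itga5, Itga8, Itgav, Itgb3, Itgb5, Lama4, Lamb1 and Lamb2. Over all 8605 genes compared, 14.8% were higher and 21.5% lower. Lamb1, 2.14-fold lower (2.10 to 2.19), was no longer called under 3 other scalings (log2 ratios -0.96, -0.93 and -0.78).

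The Pax7 class against MEFs asks which receptors and laminins tell the progenitors from the starting fibroblasts. Of 16 members compared, Itga7, Lama2 and Lama5 were higher and 8 were lower: Itga1, Itga4, Itga5, Itga8, Itgav, Itgb3, Itgb5 and Lamb2. Over all 8557 genes, 14.8% were higher and 19.4% lower. The median log2 ratio was -0.997 over the 16 members and -0.09 over all genes compared. Leaving mitochondrial and ribosomal protein genes out of the total gave 1772 higher and 1513 lower genes in place of 1264 and 1659.

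At the first step of differentiation most of the laminin chains compared were lower, while integrin chains were called both higher and lower. In the Myog class against the Pax7 class, 2 of 15 members were higher, Itga4 and Itgb6, against 7.02% of 7932 genes. Another 7 were lower, Itga1, Itgav, Itgb5, Lama2, Lama4, Lamb1 and Lamc1, against 11.5% of genes. Scaling by the median of gene ratios left 3 of the 7, Itga1, Lama4 and Lamb1. The losses were Itgav, Itgb5, Lama2 and Lamc1, at log2 ratios of -0.95 to -0.87, and Itgav also lost its call in cells of 15000 UMIs or more (-0.96), and Lamc1 in cells of 1 class only and under stricter gates (both -0.96).

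In the Ckm class against the Myog class, 13 members were compared. Itga2b and Lamb2 were higher, against 6.53% of 7332 genes, and Itga6, Lama5 and Lamb1 were lower, against 13.8% of genes. Of these lower members, 1, Lamb1, remained with scaling by the median of gene ratios, under which 691 genes were higher and 673 lower in place of 479 and 1014. The classes in these comparisons were cut on Myog and Ckm UMIs, and the Ckm class was the deepest.

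More integrin and laminin chains were higher than lower in the Dcn class against the Pax7 class. Of 16 members compared, 8 were higher, Itga1, Itga5, Itga6, Itga8, Itgb3, Lama4, Lamb2 and Lamc1, against 11.0% of 8196 genes. Lama5 was lower, 2.38-fold (1.84 to 3.13), against 6.77% of genes. The median log2 ratio was 0.95 over these members and 0.01 over all genes compared. The 110 cells in both classes were counted on both sides.

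Against MEFs, the Dcn class had as many members higher as lower. Itga6, Itga7 and Lama2 were higher and Itga4, Itgav and Itgb5 lower, of 15 members compared, against 13.0% and 12.9% of 8525 genes. Itga7, 7.11-fold higher (6.41 to 7.88), came with 4350 CPM of myocyte markers in the Dcn class, against 96.0 in MEFs. In the 201 cells of the Dcn class with no UMI of Pax7, Myog or Ckm, a set chosen after the data were seen, Itga7 stood at 36.9 CPM (31.0 to 43.6), Itga6 at 123 (112 to 135) and Itga4 at 17.4. The log2 ratio of Itga4 to MEFs was -2.19 in those cells, in place of -1.26. In those cells Itgb6 was at 0.535 CPM, from 2 UMIs (0.0648 to 1.93). Itga7 was above the 7.49 CPM of MEFs in these cells, and Itgb6 was lower than in the whole class. The level of other muscle genes in these cells, and its part in these values, was not tested.

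**Figure D3:**
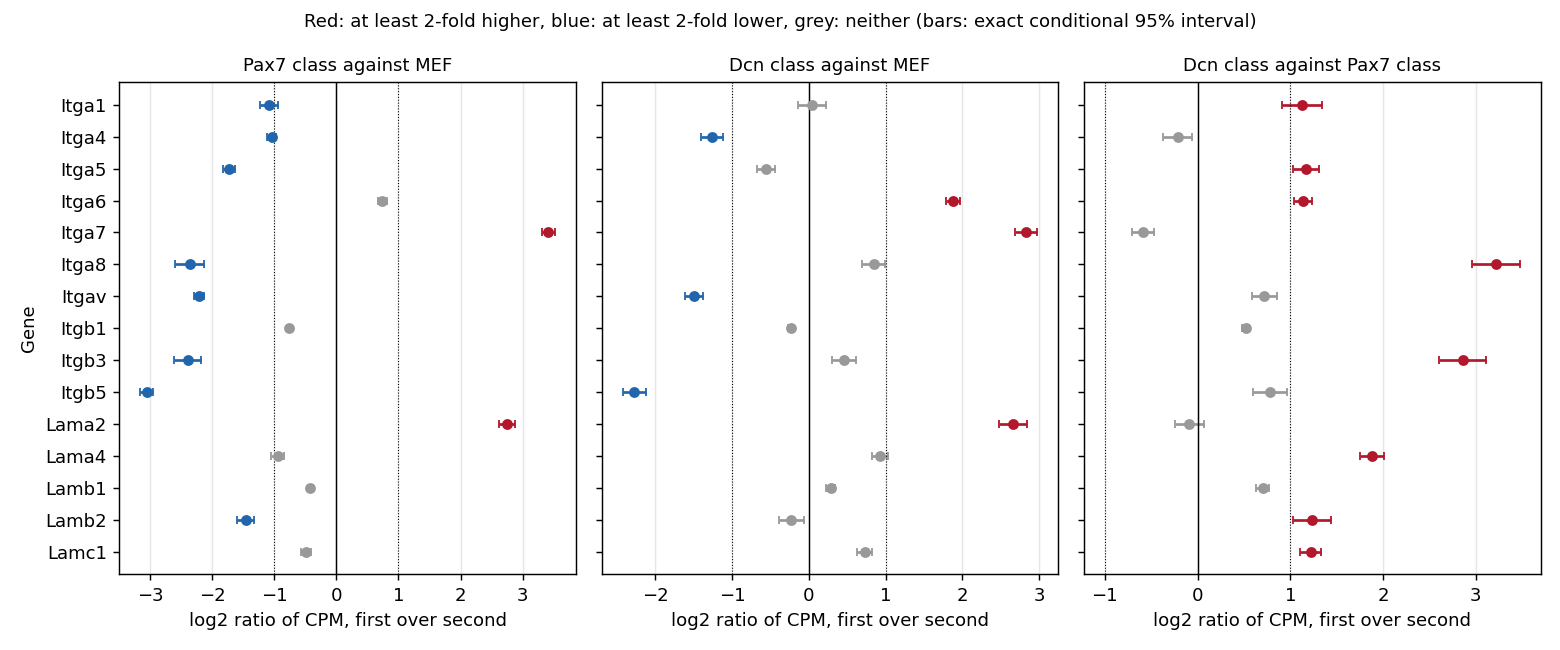
Log2 ratio of CPM, first population over second, for 15 members in 3 comparisons, with exact conditional 95% intervals and dotted lines at 2-fold. Itgb6 is left out because it had 1 UMI in MEFs. Itga7 and Lama2 lie right of 2-fold in both comparisons with MEFs, and Itga8 and Itgb3 lie farthest right in the comparison of the Dcn class with the Pax7 class.

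The gates were then cut more finely, into 8 groups of iMPC cells by Myog and Ckm UMIs, a division made after the data were seen. Itga4 was higher in the later groups, with 38.6 CPM in the Pax7 class, 50.8 at 1 to 4 Myog UMIs, 88.0 at 5 to 9, 123 at 10 to 19, 126 at 20 or more, 134 and 154 in the groups of 2 to 4 and 5 to 19 Ckm UMIs, and 160 at 20 or more Ckm UMIs. From the group of 10 to 19 Myog UMIs on, the intervals of neighbouring groups overlapped at 3 of the 4 steps. Itgb6 stood at 1.66, 2.67, 9.05, 18.5 and 30.8 CPM over the 5 groups up to at least 20 Myog UMIs, at 48.6 with 5 to 19 Ckm UMIs and at 41.8 in the last group. Itga7 stayed between 74.7 and 92.4 CPM in the Pax7 class and the groups of at most 1 Ckm UMI and was 149 in the last group. Itga6 did not move in 1 direction. It stood at 51.8 CPM in the Pax7 class, 53.9 at 1 to 4 Myog UMIs, 39.6 at 5 to 9 and 35.8 at 10 to 19. It was highest at 20 or more Myog UMIs, at 61.2 CPM, which overlapped the 59.7 at 2 to 4 Ckm UMIs. Its lowest level was in the last group, at 17.6.

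Along the same series 4 of the 5 laminin chains shown were lower in the last group than in the Pax7 class. Lamb1 was at 115 CPM in the Pax7 class, 60.1 at 5 to 9 Myog UMIs, 24.9 at 20 or more and 9.05 in the last group. Lama4 was at 22.1 CPM in the Pax7 class, 23.5 at 1 to 4 Myog UMIs, 7.52 at 5 to 9 Myog UMIs and 2.65 at 20 or more. Lama2 stood at 36.1 and 14.7 CPM in the first and the last of these groups and at 11.2 in the last of all. Lamb2 was the exception, with 11.4 CPM in the Pax7 class, 5.64 at 5 to 9 Myog UMIs and 18.7 in the last group. The median depth was 18729.5 UMIs in the first group and 51997 in the last, and its part in these levels was not tested.

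**Figure D4:**
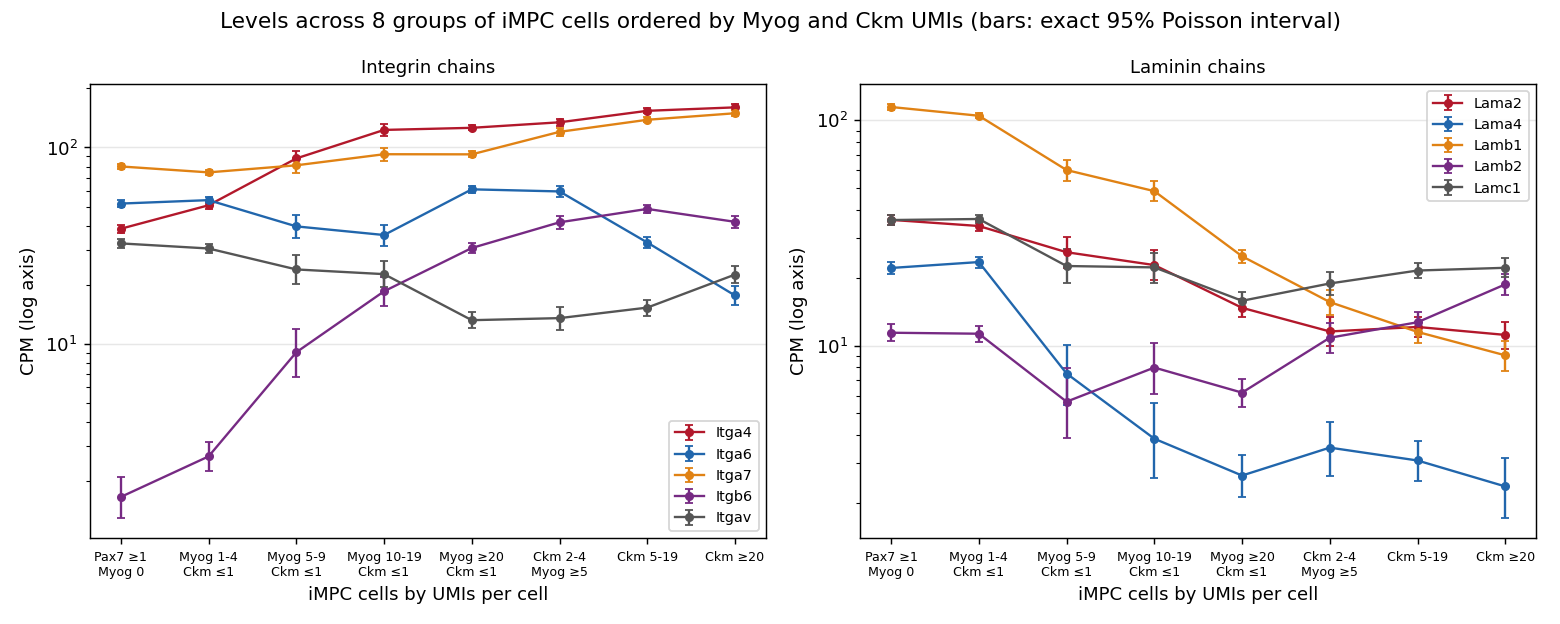
CPM (log axis) with exact 95% Poisson intervals across 8 groups of iMPC cells ordered by their Myog and Ckm UMIs, integrin chains on the left and laminin chains on the right. From the group of 5 to 9 Myog UMIs on, Itga4 and Itgb6 are higher and Lamb1 and Lama4 lower than in the Pax7 class, and Lamb2 is highest in the last group.

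The molecules that work with these chains were taken from 4 lists. Of 7 other basement membrane genes, all had enough UMIs in each comparison. In the Myog class against the Pax7 class, 5 of the 7 were lower and 0 higher: Agrn, Col18a1, Col4a1, Col4a2 and Nid1. Over all genes 11.5% were lower there and 7.02% higher. Nid1, the link between laminin and collagen IV, stood at 160 CPM in the Pax7 class and 31.9 in the Myog class, 5.01-fold lower (4.74 to 5.31). Col4a1 stood at 390 and 84.6 CPM, 4.61-fold lower (4.46 to 4.78). In the Dcn class 4 of the 7 were higher than in the Pax7 class and 0 lower, against 11.0% and 6.77% of all genes, with Nid1 at 810 CPM and Col4a1 at 1192. Against MEFs, the Pax7 class had 2 of the 7 higher, Col18a1 at 476 against 38.7 CPM and Nid2 at 58.2 against 8.88, and 1 lower, Nid1, where 14.8% of all genes were higher and 19.4% lower.

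Of 16 genes listed as integrin adaptors, not all of which link integrins to actin, 13 had enough UMIs in the Pax7 class against MEFs. Tln2, the muscle talin, was higher there, at 104 against 26.6 CPM, and 5 were lower, Ilk, Itgb1bp1, Lims2, Parva and Vcl, against 14.8% and 19.4% of all genes. Parva, the alpha-parvin of focal adhesions, stood at 42.4 against 267 CPM, 6.28-fold lower (5.997 to 6.59). Itgb1bp2, or melusin, a muscle protein that binds the Itgb1 tail, was the sole adaptor called higher at both steps of differentiation. It stood at 0.313 CPM in MEFs, 6.75 in the Pax7 class, 78.0 in the Myog class and 320 in the Ckm class, while the other 12 adaptors compared were within 2-fold at each step. Among them, Tln2 went from 104 CPM in the Pax7 class to 75.9 in the Myog class and 45.2 in the Ckm class. Fermt1, the epithelial kindlin, was at 0 UMIs in all 5 populations.

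Among 7 other matrix receptors, Bcam, a laminin receptor of the immunoglobulin family, had 0.779 CPM in MEFs, 41.9 in the Pax7 class, 77.7 in the Myog class and 94.9 in the Ckm class. Dag1, the dystroglycan that also binds laminin, stood between 60.7 CPM in MEFs and 110 in the Ckm class and was within 2-fold in each comparison. The 4 syndecans were all lower in the Myog class than in the Pax7 class, 2.03-fold for Sdc4 and 3.66-fold for Sdc3. The other 3 of the 7 receptors were within 2-fold there, and over all genes 11.5% were lower and 7.02% higher. Of 9 surface partners, Cd82, a tetraspanin known from muscle stem cells, was 16.7-fold higher in the Pax7 class than in MEFs (15.5 to 18.0), and Cd81, Adam9 and Vcam1 were lower. In that comparison 8 of the 9 had enough UMIs, and over all genes 14.8% were higher and 19.4% lower.

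The share of cells with at least 1 UMI was compared after thinning each cell to 5000 UMIs, which left out 284 MEF cells. For 15 of the 16 members, the population with the highest share was that with the highest CPM. Itga7 was found in 3.11% of MEFs (2.68 to 3.59), 31.1% of the Pax7 class (29.2 to 33.1), 35.8% of the Myog class and 49.8% of the Ckm class (46.7 to 52.8). Without thinning the shares were 11.5%, 72.5%, 79.5% and 95.9%. Itgb6 was found in 0 of 5759 thinned MEF cells, which allows a share of cells with a UMI at this depth of up to 0.0521% by 3 counts (exact upper limit 0.0640%), in 0.505% of the Pax7 class (0.252 to 0.901) and in 22.7% of the Ckm class (20.1 to 25.3). Its unthinned shares were 0.0165%, 2.98% and 77.7%. Itga8 was found in 16.1% of the Dcn class (13.1 to 19.4), 8.86% of MEFs and 1.65% of the Pax7 class, and Lama4 in 28.8%, 18.0% and 9.27%.

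Free RNA was read from 48846 iMPC barcodes of 200 to 600 UMIs, whose median of 430 UMIs was 2.06% of that of a kept cell. Itgb6 stood at 19.01 CPM in these barcodes (17.2 to 20.95), above its 1.66 CPM in the Pax7 class and its 5.59 in the Dcn class. Subtracting free RNA at that share left Itgb6 with a log2 ratio of 4.35 in the Myog class against the Pax7 class, in place of 3.97. Of the Myog, Ckm and Dcn classes, a doublet caller marked 7.77%, 8.58% and 7.96% of cells, and of the Pax7 class 1.47%. Without the marked cells the log2 ratio of Itgb6 was 4.02. Itga4, Itga7, Itga8, Itgav and Lama2 share exon bases with an annotated gene on the opposite strand, such as Cerkl for Itga4 and Mettl7b for Itga7, and Itga1 with 1 on its own strand. The sources used here do not state whether strand was used in counting, so reads of such partners may be part of these levels.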

How the data were processed

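Single cells of 1 iMPC and 1 MEF culture were measured with the 10x Genomics 3′ kit. Per the submitters' processing notes, the authors used Cell Ranger 4.0 and Seurat 3.2.3 with genome build GRCm38.p6, and the deposited matrices hold UMI counts, whole numbers per gene and barcode with no normalization. Strand use in counting is not given in the sources used here. The MEF matrix held 6113 barcodes and the iMPC matrix all 6794880, so cells were chosen here: iMPC barcodes above 10% of the 99th percentile of the top 10000 totals (9540, of which the smallest kept total was 8040 UMIs), and at most 20% mitochondrial UMIs in both. The 24 genes listed for MEFs only, 0.209% of the deposited MEF UMIs, were dropped.

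UMIs were summed per population over the shared genes and divided by their total (Python 3.11.15, numpy 2.4.6, scipy 1.17.1, pandas 2.3.3). Sums have exact Poisson, ratios exact conditional and shares exact Clopper-Pearson intervals. They cover counting error only, and 3 counts set the limit for a count of 0. Doublets were kept; Scrublet in scanpy 1.11.5 marked 4.03% of iMPC cells, and as it marked 0.0331% of MEFs, which is no working result, the 4.83% of MEFs with the highest scores were removed in that alternative. The code was tested on simulated data. Members at 20 CPM or more in a population were described singly, and partner genes at 20 CPM or more past 2-fold, at most 4 per comparison and list, largest first. Dag1, Fermt1, Chrdl2 and other genes outside that rule were named after their values were seen. The values of 1 member are not reported here. The members and lists were chosen with earlier results of these data known. Alternatives varied cell filters, gates, doublets, free RNA, scaling and thresholds.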

Additional observations from a re-analysis of the deposited data

Results flagged for a closer look

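The iMPC barcodes of 200 to 600 UMIs, which enter no comparison above, held UMIs of several members far above the 0.141 CPM that a count of 0 allows there. Itga4 stood at 51.1 CPM in these barcodes. Itga7 stood at 85.4 CPM, close to its 83.5 CPM in iMPC cells that met no gate. Itgb1 stood at 141 CPM, below the 357 CPM of all iMPC cells. Lamb1 stood at 26.3 CPM, below the 71.4 CPM of all iMPC cells.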

How the results depend on the processing

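With 1 library a group, no replicate could be left out. No paired analysis was possible because each group held 1 library. Of 175 alternatives to the counts of members, 38 moved the count by over 1.5 times, and no called member turned to the opposite side under any of them. In what follows, brackets give the share of all genes called at the same setting. Without a CPM filter beyond 10 UMIs, higher and lower members numbered 11 and 14 for iMPCs against MEFs (23.8% and 22.4%). They numbered 8 and 13 for the Pax7 class against MEFs (20.1% and 22.5%) and 5 and 14 for the Myog against the Pax7 class (9.51% and 18.1%). For the Dcn class against MEFs they numbered 11 and 5 (18.9% and 15.1%). In the Ckm against the Myog class 7 were higher (8.90%), and in the Dcn against the Pax7 class 13 (14.2%). At 50 CPM higher and lower members numbered 1 and 4 for iMPCs (15.0% and 21.9%) and for the Pax7 class against MEFs (14.5% and 19.8%). They numbered 1 and 1 for the Myog class (7.70% and 9.31%) and 0 and 1 for the Ckm class (8.47% and 11.2%). For the Dcn against the Pax7 class they numbered 4 and 0 (11.7% and 6.07%). At 4-fold, 4 were lower in iMPCs (7.47%) and in the Pax7 class against MEFs (6.89%). In the Myog class 1 was higher and 2 lower (3.47% and 2.66%), and in the Ckm class 0 and 0 (0.968% and 2.99%). In the Dcn against the Pax7 class 2 were higher and 0 lower (3.28% and 0.769%), and 1 was lower in the Dcn class against MEFs (3.55%). At 1.5-fold, 4 were higher in the Ckm class (12.9%), 2 lower in the Dcn against the Pax7 class (15.9%) and 6 higher in the Dcn class against MEFs (20.6%). Scaling by the median of gene ratios left 3 lower in the Myog class (9.40%) and 1 in the Ckm class (9.18%). It moved the median of all genes by 0.14 and 0.23 there, and by 0.17 for iMPCs and 0.10 for the Dcn class against MEFs. Dividing by totals that leave out ribosomal protein and mitochondrial genes gave 6 higher in the Dcn class against MEFs (14.4%). It moved the median by 0.14 for iMPCs and 0.17 for the Pax7 class against MEFs and by -0.10 for the Dcn against the Pax7 class. Cells of 1 class only gave 5 higher in the Dcn class against MEFs (12.4%). Dcn cells without Pax7, Myog or Ckm UMIs gave 6 higher there (11.99%) and 3 lower than the Pax7 class (11.2%). The cause of these shifts was not tested, beyond the fewer or more genes that a threshold admits.

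Of 494 alternatives to the log2 ratios of called members, 21 ended the call, and 18 of 497 for members not called brought one. These calls are named with their genes above, apart from Lamb2 in the Myog class (-1.06 with the mean of each cell's CPM), Itgb6 in the Ckm class (1.05 with scaling by the median), Itgb5 in the Dcn against the Pax7 class (1.05 in cells of 1 class only), and Lama4, Itga8 and Lamc1 in the Dcn class against MEFs (up to 1.304, 1.21 and 1.07 without Pax7, Myog or Ckm UMIs). Without those UMIs, Itga4 and Itga7 were also lower in the Dcn than in the Pax7 class (-1.15 and -1.12). The Itgb6 ratio of those cells to MEFs has no value, since both sides held 3 UMIs or fewer. The members at the highest share of cells in the population of highest CPM numbered 15 at 2000 UMIs, 12 with no thinning and 16 at 2 UMIs or more.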

Other observations

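The 4001 iMPC cells that met no gate had Itga7 at 83.5 CPM, Itga4 at 62.7, Itgb6 at 9.47, Lama2 at 28.8 and Lamb1 at 92.1. Each of these values lay between those of the Pax7 and the Myog class.

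The Pax7 class held 1127 cells with a UMI of Mki67, the proliferation marker, and 1053 without, with median depths of 22221 and 15673 UMIs. Itga4 stood at 47.5 CPM in the cells with a Mki67 UMI and 24.8 in those without (log2 ratio 0.94, 0.78 to 1.10). Most of the 16 members were lower in the cells with a Mki67 UMI, by the most for Itga8, Itgb3 and Lama4. Itga8 stood at 1.54 against 7.65 CPM, Itgb3 at 2.07 against 8.05, and Lama4 at 14.7 against 33.5. Itga1, Itga5, Itga6, Itgav, Itgb1, Itgb5, Lamb1, Lamb2 and Lamc1 were also lower beyond counting error (log2 ratios -0.72 to -0.22). Itga7 did not differ beyond counting error, with 80.4 and 79.6 CPM (log2 ratio 0.01, -0.08 to 0.11). In MEFs the same split gave 68.5 and 81.0 CPM for Itga4 (log2 ratio -0.24, -0.34 to -0.15). Itga8, Itgb5, Lamb1 and Lama4 were among the members lower there (log2 ratios -0.54 to -0.40), and none of the 16 was higher beyond counting error. The split was chosen after the data were seen, a Mki67 UMI is found more readily in deeper cells, and the part of depth was not tested.

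The 110 cells that met both the Pax7 and the Dcn gate had a median of 18063.5 UMIs. Their levels of Itga8 (34.1 CPM), Itgb3 (35.4), Lama4 (77.0) and Itga6 (124) overlapped those of the other 443 cells of the Dcn class (37.2, 31.4, 82.2 and 111). Against the other 2070 cells of the Pax7 class, Itga8 was higher by 3.89 (3.44 to 4.34) and Itgb3 by 3.70 (3.27 to 4.12) on the log2 scale. Itga7 stood at 39.8 CPM against 82.3 in those Pax7 cells, and Itga4 at 17.9 against 39.7. Itga7 and Itga4 were also lower than in the other 443 cells of the Dcn class, which had 56.3 and 36.8 CPM. Itga1 was lower than in those Dcn cells too, at 14.4 against 25.5. Itgb6 had 1 UMI in the 110 cells (0.437 CPM), against 6.78 CPM in the other Dcn cells.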
